A study of Rattus norvegicus with 39 samples.

Results

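Stored fat in the liver lies in lipid droplets, and 10 genes that coat these droplets or break down their triacylglycerol were followed in rat liver after ischemia-reperfusion: G0s2, Pnpla2, Abhd5, Lipe, Mgll, Plin2, Plin4, Plin5, Cidec and Cidea. They were chosen by their platform gene symbols, and they are 10 of the 18891 genes that had a probe set with 1 symbol on the array. Pnpla2 had 2 probe sets, of which the one with the higher mean was used, and each other gene had 1. Male Wistar rats of 5 to 6 weeks were anesthetized with isoflurane, and the blood supply of their left and median lobes, 70% of the liver, was clamped for 30 min. These combined lobes (reperfused) and the right lobe of the same animal, which kept its blood flow (non-ischemic), were collected after 0, 0.5, 2 or 6 hr of reperfusion. Sham-operated rats had their livers handled without clamping and were killed at the same 4 times, and unoperated rats completed the 13 groups of 3 arrays each (39 arrays). At 0 hr the lobes called reperfused had been ischemic and not yet reperfused. All surgery took place mid-morning, so hours after surgery and time of day cannot be told apart. The sources do not say which lobe of the sham livers was used.

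Triacylglycerol is taken apart in steps. Pnpla2 (adipose triglyceride lipase) removes the first fatty acid, and it is switched on by Abhd5 and blocked by G0s2. Lipe (hormone-sensitive lipase) cleaves mainly diacylglycerol, and Mgll cleaves monoacylglycerol. Perilipins cover the droplet surface: Plin2 is the main coat protein of hepatocyte droplets, Plin5 is known from oxidative tissues, and Plin4 is known mainly from adipocytes. Cidec and Cidea sit where droplets touch and enlarge them by passing lipid from droplet to droplet. In liver, droplet proteins are known to rise with the fatty acid supply, as during fasting.

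All values below are log2 intensities, made from the linear intensities that the authors deposited, and all differences are on the log2 scale. Median intensity was 39.6 to 43.6 in reperfused lobes, 39.9 to 41.2 in non-ischemic lobes, 39.9 to 41.8 in the shams and 41.0 to 41.7 in the unoperated livers, and replicates of a group correlated at 0.984 or more over all 23409 probe sets. The labelled tissue was borne out by Alb, which encodes albumin and lay between 19.84 and 19.93 on the 39 arrays. Of 9 fat cell genes, Lep, Retn, Plin1, Adrb3 and Slc2a4 stayed under 5 on every array, a level at which background makes up much of the signal, while Fabp4 reached 7.72, Cfd 7.73, Pparg 7.25 and Adipoq 5.81. Reperfused 6 hr replicate 3 stood apart, with Fcnb, a neutrophil gene, at 12.69, against 6.47 and 7.15 on the other 2 arrays of its group. In such tissue samples, fewer cells of a type and less RNA per cell cannot be told apart.

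Promoter windows of 3 members are shown because these genes carried the results that follow. G0s2 was the only member called between the lobes. Cidec was called higher in both lobes against the pooled shams, and Plin2 separated the 6 hr shams from every other array. Each window runs from 250 bases before to 50 bases after the RefSeq start, on the GRCr8 build and 5′ to 3′ on the gene's own strand. They lie at chr13:107335899-107336198 (minus strand) for G0s2, at chr4:148137066-148137365 (minus strand) for Cidec, and at chr5:106228969-106229268 (minus strand) for Plin2, for which the more upstream of 2 listed starts was taken. Capitals mark a match to 1 of 6 motifs searched on both strands.
G0s2: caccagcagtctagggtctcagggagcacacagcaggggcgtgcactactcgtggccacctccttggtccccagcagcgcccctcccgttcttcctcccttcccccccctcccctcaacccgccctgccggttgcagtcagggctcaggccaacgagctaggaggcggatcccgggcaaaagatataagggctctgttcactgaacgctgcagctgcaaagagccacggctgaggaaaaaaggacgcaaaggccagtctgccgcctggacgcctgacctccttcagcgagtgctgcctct
Cidec: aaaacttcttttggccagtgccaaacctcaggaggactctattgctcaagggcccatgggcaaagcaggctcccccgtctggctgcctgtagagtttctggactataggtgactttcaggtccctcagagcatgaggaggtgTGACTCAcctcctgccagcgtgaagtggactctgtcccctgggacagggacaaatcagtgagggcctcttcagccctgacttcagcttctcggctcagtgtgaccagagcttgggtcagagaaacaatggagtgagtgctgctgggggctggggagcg
Plin2: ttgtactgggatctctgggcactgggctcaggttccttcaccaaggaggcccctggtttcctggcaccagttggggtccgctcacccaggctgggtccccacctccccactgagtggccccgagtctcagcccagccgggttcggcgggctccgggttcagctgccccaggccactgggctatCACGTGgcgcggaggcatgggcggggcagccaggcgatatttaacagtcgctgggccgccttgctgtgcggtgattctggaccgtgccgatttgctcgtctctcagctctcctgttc
The capitals in Cidec are a match to the AP-1 letters TGANTCA that begins 108 bases before the start. Those in Plin2 are the HIF core letters ACGTG, read on both strands of the same 6 bases, which begin 67 bases before the start and also spell an E-box. The G0s2 window held no match. Among the 9 members with a window (Lipe had none), the AP-1 letters were found in Cidec and Plin4 and the HIF letters in Plin2 and Mgll. Over all 33469 windows of this length, 7.33% held the AP-1 letters and 19.3% the HIF letters. The other 4 motifs were found in no member: the cAMP element TGACGTCA (in 1.83% of all windows), the PPAR-RXR direct repeat (0.415%), the glucocorticoid element (0.439%) and the FoxO letters TGTTTAC (3.78%). A match is a run of letters and not a shown binding site.

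**Figure D1:**
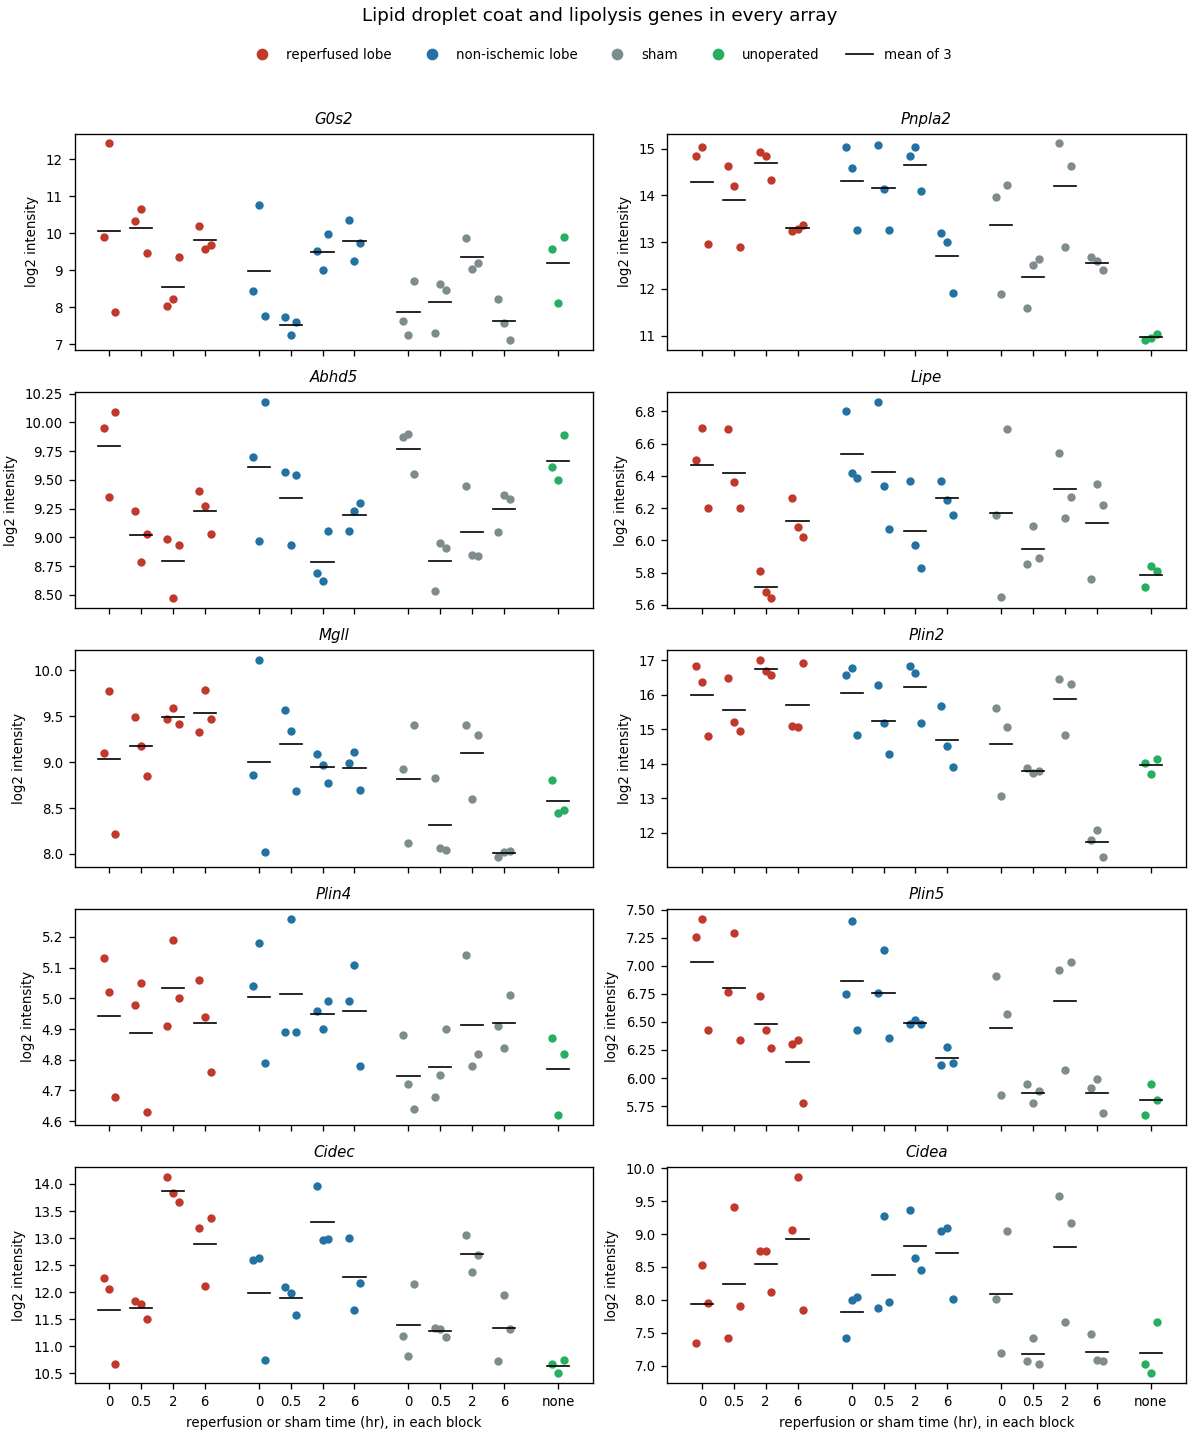
Log2 intensity of the 10 genes in all 39 arrays, in blocks for the reperfused lobes, the non-ischemic lobes and the shams at 0, 0.5, 2 and 6 hr and, last, the unoperated livers (points are arrays, bars the mean of 3). Plin2 in the 6 hr shams (11.30 to 12.08) and Pnpla2 in the unoperated livers (10.91 to 11.03) lie below all other arrays.

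The members differed in how far their group means ranged. Plin2 had the widest span, with a highest mean of 16.75 in reperfused lobes at 2 hr and a lowest of 11.72 in the 6 hr shams. Pnpla2 spanned 3.74, between 14.70 in reperfused lobes at 2 hr and 10.96 in the unoperated livers. Cidec spanned 3.24, between 13.88 in reperfused lobes at 2 hr and 10.64 in the unoperated livers. The standard deviation within groups was 0.854 for Plin2, 0.783 for Pnpla2 and 0.576 for Cidec, so most neighbours in the order of group means differed by less than this spread. G0s2 had both ends of its range at a single time: its highest mean, 10.16, was in reperfused lobes at 0.5 hr and its lowest, 7.54, in non-ischemic lobes at 0.5 hr. The span was 1.74 for Cidea, 1.52 for Mgll, 1.23 for Plin5, 1.00 for Abhd5 and 0.82 for Lipe. Plin4 lay between 4.62 and 5.26 on all arrays, close to background, and it varied too little to enter the tests, which covered the 11704 probe sets whose interquartile range exceeded 0.26, the median of all probe sets. The other 9 members were tested with limma, and a q-value (the Benjamini-Hochberg adjusted p over those 11704 probe sets) under 0.05 was called.

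After 0.5 hr of reperfusion, G0s2, the inhibitor of Pnpla2, was the only member that separated the lobes. It was at 10.34, 10.65 and 9.48 in reperfused lobes of animals 1, 2 and 3, against 7.74, 7.26 and 7.60 in their non-ischemic lobes. Every reperfused value lay above every non-ischemic value, and each animal showed the rise. The difference was 2.62 (SE 0.304, limma q = 0.0316), a 6.15-fold higher level in reperfused lobes, and q was 0.0225 with the animal as a block, a fit that called 1.02% of all tested probe sets. That made 1 of 9 tested members called, beside 0.154% of all tested probe sets, and 1 member whose groups did not overlap, beside 10.8% of all tested probe sets. The call was lost (limma q = 0.102 to 0.164) without any of the arrays reperfused replicate 1, reperfused replicate 2 or non-ischemic replicates 1, 2 and 3, and the difference was then 2.37 to 2.73. It was also lost when all 23409 probe sets were tested (limma q = 0.109) and when the filter was instead a mean level of at least 5 (limma q = 0.0627). Shams killed at 0.5 hr were at 7.32, 8.63 and 8.46. Their mean, 8.14, lay between the means of the lobes, while the value of 7.32 lay within the non-ischemic range. The summed level of the 8 neutrophil markers moved in the same direction, with 8.16 to 9.59 in reperfused lobes and 7.79 to 8.12 in non-ischemic lobes. Of these markers 5 had a mean under 5, and Camp and Ngp, defining genes among them, stayed under 5 on all arrays. Fcnb was at 6.88 to 7.34 in reperfused and 5.85 to 6.21 in non-ischemic lobes, without overlap. It alone of the 8 was called against the pooled shams (0.70, limma q = 0.036). The 5 measured red blood cell genes had a summed level of 10.39 to 14.90 in reperfused and 9.56 to 10.78 in non-ischemic lobes. The 14.90 was a single array that stood apart, with a median of 11.21 in its group and at most 12.26 in any other group. The part of either cell type in the G0s2 difference was not tested.

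Pnpla2, the lipase that G0s2 inhibits, overlapped between the lobes at this time, with 14.63, 14.21 and 12.89 in reperfused lobes and 15.08, 14.14 and 13.27 in non-ischemic lobes. In each lobe animal 3 was the lowest. Its lobe difference was -0.25 (SE 0.560), and that of Abhd5, the activator, was -0.33 (SE 0.215), downward in all 3 animals. The remaining differences at 0.5 hr lay between -0.18 for Cidec and 0.31 for Plin2, and none passed the test.

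At 2 hr the G0s2 difference had turned round. The reperfused lobes were at 8.04, 8.22 and 9.35, against 9.51, 9.02 and 9.98 in non-ischemic lobes, so that the reperfused lobe was the lower one in each animal, by 1.46, 0.81 and 0.63, although the groups overlapped. The mean difference was -0.97 (SE 0.371), and it was not called (limma q = 0.571) in the fit without pairing. With the animal as a block it was called (SE 0.184, limma q = 0.0367), 1 of 9 members beside 1.84% of all tested probe sets, against 0 members and 0.111% without the block.

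The turn itself was tested on the differences within animals. Between 0.5 and 2 hr the lobe difference of G0s2 changed by -3.59 (SE 0.366, limma q = 0.00405, n = 3 animals at each time), 1 of 9 members beside 0.923% of all tested probe sets. Without any single animal the change was -3.96 to -3.20 and stayed called (limma q = 0.00244 to 0.0354). Both lobes took part: the mean of reperfused lobes was 10.16 at 0.5 hr and 8.54 at 2 hr, while that of non-ischemic lobes was 7.54 at 0.5 hr and 9.50 at 2 hr. The shams had means of 8.14 at 0.5 hr and 9.36 at 2 hr. At 6 hr the lobes of each animal were within 0.32 of each other, with means of 9.83 in reperfused and 9.78 in non-ischemic lobes. Neither the change between 0 and 0.5 hr (1.53, SE 0.483, limma q = 0.555; 0.222% of probe sets called) nor that between 2 and 6 hr (1.01, SE 0.259, limma q = 0.443; 0% called) passed the test.

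Before reperfusion, G0s2 was the most scattered member. In the ischemic lobes at 0 hr it was at 9.91, 12.43 and 7.88, and in non-ischemic lobes at 8.43, 10.76 and 7.76. The ischemic lobe was higher in each animal, by 1.48, 1.67 and 0.12, and animal 2 was the highest in both lobes. The mean difference of 1.09 (SE 1.220) was not called, and neither was any other member or probe set at 0 hr (0% called; 181 probe sets and 0 members had an unadjusted p under 0.05).

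**Figure D2:**
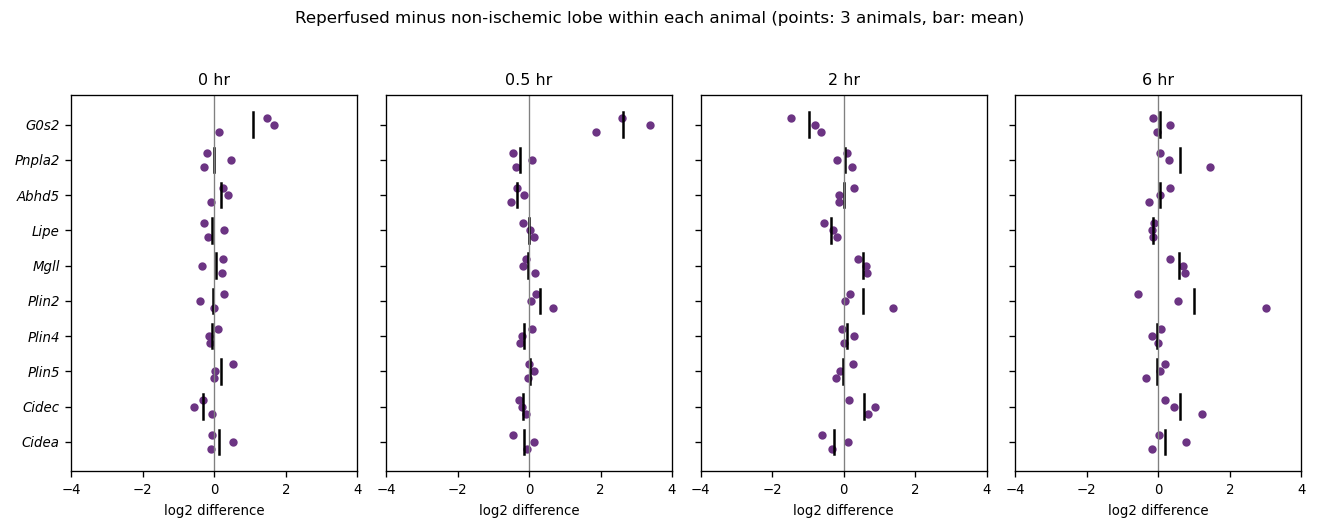
Reperfused minus non-ischemic lobe within each animal for the 10 genes at 0, 0.5, 2 and 6 hr, on the log2 scale (points are the 3 animals, bars their mean). G0s2 lies between 1.88 and 3.39 at 0.5 hr and between -1.46 and -0.63 at 2 hr, and Plin2 runs between -0.56 and 3.02 at 6 hr.

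Mgll, which completes the breakdown by cleaving monoacylglycerol, was higher in the reperfused lobe of every animal at 2 and 6 hr. At 2 hr it was at 9.47, 9.59 and 9.41 in reperfused lobes, against 9.09, 8.97 and 8.77 in non-ischemic lobes. At 6 hr it was at 9.33, 9.79 and 9.47 in reperfused lobes, against 8.99, 9.11 and 8.70 in non-ischemic lobes. The lobes did not overlap at either time, but the differences of 0.55 (SE 0.154, limma q = 0.354) at 2 hr and 0.59 (SE 0.187, limma q = 0.997) at 6 hr were not called. At 0 and 0.5 hr its differences were 0.04 and -0.02.

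Lipe was lower in reperfused lobes at 2 hr, with 5.81, 5.68 and 5.64 against 6.37, 5.97 and 5.83 in non-ischemic lobes. Its level was low, with a mean of 6.18 over all arrays, and background makes up much of the signal under 5. These groups did not overlap either, and the difference was -0.35 (SE 0.180, limma q = 0.773). Mgll and Lipe were 2 of the 9 tested members without overlap at 2 hr, beside 12.7% of all tested probe sets. At 6 hr the members without overlap were Mgll and Pnpla2, 2 of 9 beside 7.53% of all tested probe sets. Pnpla2 was then at 13.24, 13.29 and 13.37 in reperfused lobes and at 11.92 to 13.19 in non-ischemic lobes, a difference of 0.60 (SE 0.327, limma q = 0.997) that came mostly from animal 3.

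Cidec, which enlarges droplets, had lobe differences of either sign. Its lobe difference was downward in all 3 animals at 0 hr (mean -0.33) and at 0.5 hr (mean -0.18) and upward in all 3 at 2 hr (mean 0.57) and at 6 hr (mean 0.62). The change between 0.5 and 2 hr was 0.75 (SE 0.205, limma q = 0.154) and was not called. No member was called between the lobes at 6 hr, when no probe set passed the test (0% called; 251 probe sets and 1 member, Mgll, had an unadjusted p under 0.05).

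The size of the lobe differences, as their root mean square over the 12 animals, was 0.50 for Pnpla2, 0.54 for Cidec, 0.37 for Cidea and 0.21 for Plin5. The standard deviation of the animals' lobe means within a time was 0.73 for Pnpla2, 0.62 for Cidec, 0.67 for Cidea and 0.35 for Plin5. For G0s2 the root mean square lobe difference was 1.58 and the standard deviation between animals 1.03, for Plin2 they were 1.02 and 0.76, and for Lipe 0.25 and 0.22. The median absolute lobe difference of Plin2 was 0.34, and animal 3 had a difference of 1.39 at 2 hr and of 3.02 at 6 hr. The 6 hr value pairs the reperfused array with the high Fcnb level, which had Plin2 at 16.92, with a non-ischemic lobe at 13.90. Without animal 3, the Plin2 lobe differences at 6 hr were -0.56 and 0.54, in opposite directions.

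**Figure D3:**
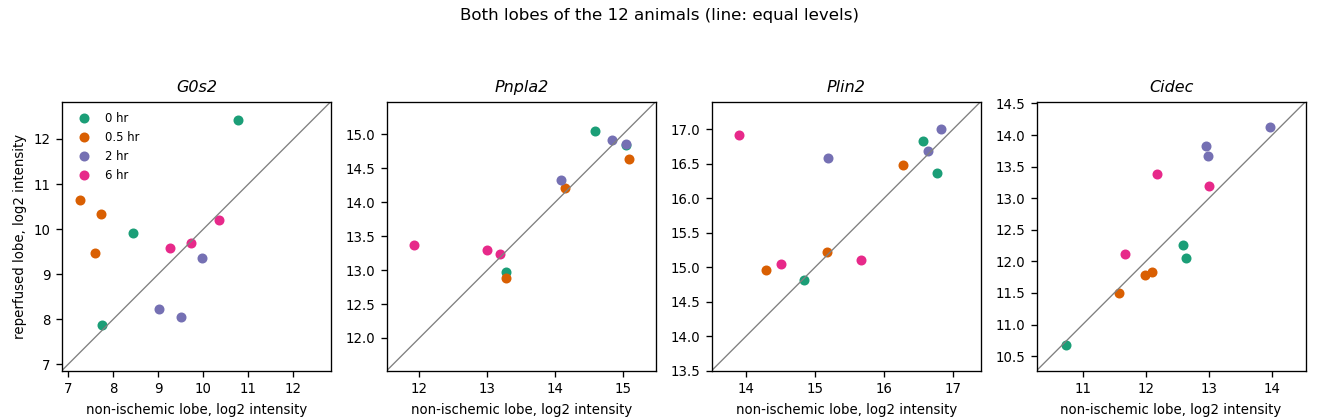
Log2 intensity of G0s2, Pnpla2, Plin2 and Cidec in the reperfused lobe against the non-ischemic lobe of the 12 animals, coloured by time, with the line of equal levels. The G0s2 points of 0.5 hr lie above the line and those of 2 hr below it, and Plin2 of animal 3 at 6 hr is farthest from it in its panel.

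Each lobe was next set against the 12 shams of all times, as the study did, and these comparisons share their shams. Cidec had the lowest q-values. At 2 hr it was at 14.13, 13.83 and 13.67 in reperfused lobes and at 13.97, 12.96 and 12.99 in non-ischemic lobes, while the 12 shams ranged between 10.73 and 13.05 with a median of 11.34. The reperfused lobes lay above all shams, and the non-ischemic lobes overlapped only with the highest. The difference was 2.20 (SE 0.406, limma q = 0.00253) in reperfused lobes, a 4.59-fold rise, and 1.63 (SE 0.423, limma q = 0.0199) in non-ischemic lobes, a 3.09-fold rise. Cidec was the 1 called member in each, beside 12.7% of all tested probe sets in reperfused and 14% in non-ischemic lobes. The reperfused call held without any single array (limma q = 0.000562 to 0.0245). The non-ischemic call was lost without non-ischemic replicate 1 (difference 1.30, limma q = 0.132) or replicate 2 (1.80, limma q = 0.0657). The 2 hr shams were themselves the highest shams, at 13.05, 12.37 and 12.69. Against these 3 alone the difference was 1.17 (SE 0.216, limma q = 0.0428) in reperfused lobes, 1 member called beside 1.74% of all tested probe sets. In the non-ischemic lobes no member was called against the 2 hr shams, beside 0.00854%. The Cidec mean was 13.31 in these lobes and 12.70 in the 2 hr shams. Fabp4, 1 of 9 adipocyte markers, rose by 1.17 in reperfused lobes at 2 hr against the pooled shams (limma q = 0.0303). The summed adipocyte markers were at 8.63 to 9.17 in reperfused and 8.48 to 8.75 in non-ischemic lobes at 2 hr, against 8.26 to 8.81 in the shams, with Lep, Plin1 and 3 others under 5 on all arrays. The 8 summed stellate cell markers were at 12.17 to 12.53 in reperfused and 12.72 to 12.96 in non-ischemic lobes at 2 hr, below all 12 shams at 13.18 to 14.57. Lrat was the brightest of the 8 (mean 12.82, with Reln next at 10.05), so it weighed most in this sum. It was also the only 1 of the 8 called in either lobe. In reperfused lobes the stellate gene Lrat fell by 1.74, the endothelial gene Kdr fell by 1.20 and the hepatocyte gene Tat fell by 1.20. In non-ischemic lobes Lrat fell by 1.16 and Kdr fell by 0.88. Kdr and Tat were the only genes called from their lists, and the sums of those lists stayed within the range of the shams. The endothelial sum was 15.04 to 15.42 in reperfused and 15.07 to 15.76 in non-ischemic lobes, against 14.94 to 15.82 in the shams. The hepatocyte sum was 21.91 to 22.04 and 22.02 to 22.08, against 21.84 to 22.10. The part of these cell types in the Cidec rise was not tested.

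Plin2, Mgll and Pnpla2 came next in reperfused lobes at 2 hr and did not pass the test. Plin2 was at 17.00, 16.68 and 16.58, above all 12 shams (11.30 to 16.45, median 13.82), and differed by 2.76 (SE 0.912, limma q = 0.0561). Mgll lay above all shams too, and differed by 0.93 (SE 0.320, limma q = 0.0651). Cidec, Plin2 and Mgll made 3 of 9 tested members without overlap, beside 9.01% of all tested probe sets. Pnpla2 differed by 1.60 (SE 0.596, limma q = 0.0865) in reperfused lobes and by 1.56 (SE 0.602, limma q = 0.0898) in non-ischemic lobes, and the Pnpla2 second probe set gave 1.43 in reperfused and 1.40 in non-ischemic lobes. The shams of 2 hr lay closer to these lobes than the pooled shams did. Their means were 15.87 for Plin2, 9.10 for Mgll and 14.21 for Pnpla2, against 16.75, 9.49 and 14.70 in reperfused lobes. Against the 2 hr shams alone, Cidec was the only called member, so Plin2, Mgll and Pnpla2 were not called. Which members were called against the pooled shams depended on single shams. Without 2 hr sham replicate 1 or without replicate 3, Pnpla2, Mgll, Plin2 and Cidec were all called in reperfused lobes (4 members). Plin2 was also called without 0 hr sham replicate 1 (difference 2.91, limma q = 0.0489) and Mgll without 0 hr sham replicate 3 (1.01, limma q = 0.0384). In the non-ischemic lobes, Pnpla2 and G0s2 joined Cidec without 2 hr sham replicate 1 (3 members), and Pnpla2 joined it without replicate 3 (2 members).

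At 6 hr, 3 of 9 tested members were called, all of them higher, in reperfused lobes against the pooled shams, beside 28.9% of all tested probe sets called and 19.7% called higher. G0s2 was at 10.20, 9.59 and 9.69, against shams of 7.12 to 9.87 with a median of 8.35, a difference of 1.57 (SE 0.478, limma q = 0.0209). Mgll differed by 0.97 (SE 0.326, limma q = 0.0340) and Cidec by 1.22 (SE 0.432, limma q = 0.0438). All 3 overlapped with the highest shams. In the non-ischemic lobes G0s2 alone was called, with 10.35, 9.26 and 9.73 and a difference of 1.53 (SE 0.487, limma q = 0.0310), 1 of 9 members beside 24.8% of all tested probe sets. All 3 reperfused calls (G0s2, Mgll and Cidec) were lost without reperfused replicate 1 or 3 (limma q = 0.0535 to 0.194), and without replicate 2 Cidec alone was called. Cidec was also lost without any of 0 hr sham replicates 1 and 2, 0.5 hr sham replicates 1, 2 and 3 or 6 hr sham replicates 1 and 3 (limma q = 0.0538 to 0.0618). The non-ischemic G0s2 call was lost without any 1 of the 3 non-ischemic arrays (limma q = 0.0513 to 0.182). The summed neutrophil markers were at 8.36, 8.55 and 12.85 in reperfused lobes at 6 hr and at 8.39 to 9.99 in non-ischemic lobes, against 7.74 to 8.66 in the shams. G0s2 in reperfused lobes was 1.64 above the shams without the array that reached 12.85 (limma q = 0.0535). Non-ischemic replicate 1 had both the highest neutrophil sum of its group, 9.99, and the highest G0s2, and without it G0s2 was 1.24 above the shams (limma q = 0.182). The summed stellate cell markers were at 12.15 to 12.59 in reperfused and 12.08 to 12.90 in non-ischemic lobes, below all shams at 13.18 to 14.57. Lrat was again the only stellate gene called in either lobe. In reperfused lobes Lrat fell by 1.78, the macrophage gene Adgre1 fell by 0.92, the endothelial gene Stab2 fell by 0.79, and Tat and Cps1 of hepatocytes fell by 1.30 and by 0.39. In non-ischemic lobes Lrat fell by 1.31, Adgre1 fell by 1.11 and Stab2 fell by 0.71. The sums of the last 3 cell types overlapped with the shams. The macrophage sum was 14.65 to 15.21 in reperfused and 14.29 to 15.24 in non-ischemic lobes (shams 14.46 to 15.82). The endothelial sum was 15.06 to 15.22 and 15.03 to 15.13 (shams 14.94 to 15.82). The hepatocyte sum was 21.75 to 21.90 and 21.81 to 21.94 (shams 21.84 to 22.10). The part of these cell types in the G0s2, Mgll and Cidec calls was not tested.

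**Figure D4:**
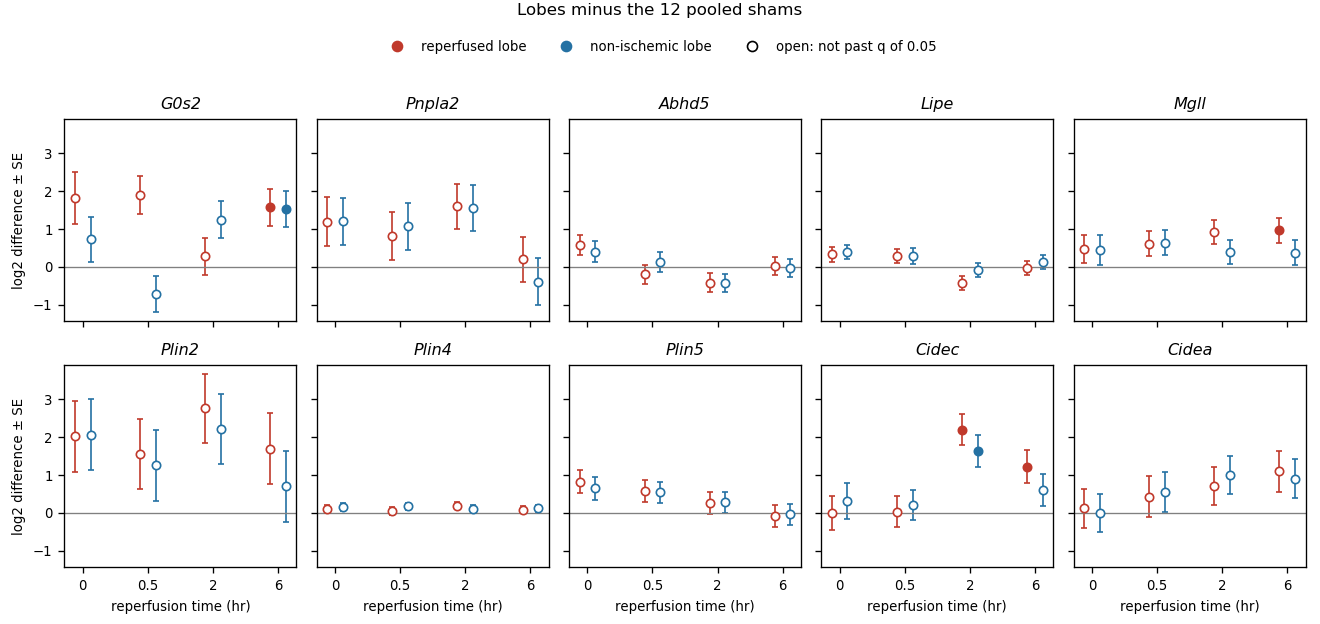
Difference of reperfused and of non-ischemic lobes from the 12 pooled shams for the 10 genes at 0, 0.5, 2 and 6 hr, in log2 units with the standard error (filled points passed the test at q under 0.05; Plin4 was not among the tested genes). The filled points are Cidec at 2 hr in both lobes and, at 6 hr, G0s2 in both lobes and Mgll and Cidec in reperfused lobes, all of them above 0.

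At 0 and 0.5 hr no member was called in either lobe against the pooled shams. The share of probe sets called was 0% at 0 hr and 1.56% at 0.5 hr in reperfused lobes, and 0.0342% at 0 hr and 1.17% at 0.5 hr in non-ischemic lobes. At 0 hr, 4 members in reperfused and 2 in non-ischemic lobes had an unadjusted p under 0.05, and at 0.5 hr 1 and 0. G0s2 in reperfused lobes at 0.5 hr was nearest, with a difference of 1.90 (SE 0.491, limma q = 0.0626), and it was called without 2 hr sham replicate 1 (2.05, limma q = 0.0237) or replicate 3 (1.99, limma q = 0.0451). In the non-ischemic lobes G0s2 differed by -0.72 (SE 0.474, limma q = 0.448). Plin2 was 2.02 (SE 0.944) above the shams in reperfused and 2.07 (SE 0.945) above them in non-ischemic lobes at 0 hr, with limma q of 0.329 and 0.335, over shams that ranged between 11.30 and 16.45.

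The shams differed by time, and the members' comparisons depended on which shams were used. Plin2, the droplet coat protein, was at 11.79, 12.08 and 11.30 in the 6 hr shams, against 13.05 to 16.45 with a median of 14.84 in the 9 earlier shams. It lay below all 36 other arrays of the series. The difference was -3.02 (SE 0.637, limma q = 0.00896), an 8.10-fold lower level in the 6 hr shams, the 1 called member beside 11.3% of all tested probe sets, and it was lost without 6 hr sham replicate 3 (-2.81, limma q = 0.0584). Mgll, at 7.97, 8.02 and 8.03 in the 6 hr shams, also lay below the earlier shams (8.04 to 9.40), and it differed by -0.73 (SE 0.303, limma q = 0.141). Plin2 and Mgll were 2 of 9 tested members without overlap, beside 12.9% of all tested probe sets. The summed neutrophil markers were at 8.25 to 8.66 in the 6 hr shams and 7.74 to 8.10 in the earlier shams, with S100a9 higher by 0.98 and S100a8 by 0.78. The stellate genes Pdgfrb and Reln fell by 0.89 and by 0.88, and the endothelial genes Clec4g and Stab2 fell by 0.92 and by 0.63. The sums of both lists overlapped between the 6 hr and the earlier shams. The stellate sum was 13.24 to 13.62 against 13.18 to 14.57, and the endothelial sum 14.94 to 15.37 against 15.17 to 15.82. The part of these cell types in the Plin2 difference was not tested.

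Against the 6 hr shams alone, Plin2 in the lobes at 6 hr showed the largest differences of any member. It was at 15.10, 15.05 and 16.92 in reperfused lobes and at 15.67, 14.51 and 13.90 in non-ischemic lobes. The difference was 3.97 (SE 0.503, limma q = 0.00532) in reperfused and 2.97 (SE 0.424, limma q = 0.00944) in non-ischemic lobes. In the reperfused lobes, G0s2 (2.19), Cidea (1.71), Cidec (1.56), Mgll (1.52) and Pnpla2 (0.74) were called as well, 6 of 9 members beside 18.7% of all tested probe sets. In the non-ischemic lobes G0s2 (2.14), Cidea (1.51) and Mgll (0.93) were called beside Plin2, 4 of 9 members beside 15.1%. All of these were rises.

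Against the 0.5 hr shams alone, G0s2 (2.02, limma q = 0.0193), Plin2 (1.76, limma q = 0.0201) and Plin5 (0.93, limma q = 0.0407) were higher in reperfused lobes at 0.5 hr, 3 of 9 members beside 11.6% of all tested probe sets. In the non-ischemic lobes Pnpla2 (1.92, limma q = 0.0296) and Plin5 (0.88, limma q = 0.0291) were higher, 2 of 9 members beside 12%. Plin2 was at 16.48, 15.22 and 14.96 in reperfused and at 16.27, 15.17 and 14.29 in non-ischemic lobes, against 13.86, 13.74 and 13.78 in these shams. Both lobes lay above the shams in every array. Against the 0 hr shams alone no member and no probe set was called in either lobe.

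Pnpla2 separated the shams from the unoperated livers, although it did not pass the test. The 12 shams were at 11.60 to 15.11 (median 12.66), all above the unoperated livers at 10.91, 10.95 and 11.03. The difference was 2.13 (SE 0.593, limma q = 0.0717) and was not called, though it was called without 0.5 hr sham replicate 1 (2.27, limma q = 0.0402). The Pnpla2 second probe set gave 1.98 (SE 0.535, limma q = 0.0661). Pnpla2 was the 1 member without overlap, beside 5.34% of all tested probe sets, and 0 of 9 members were called, beside 2.37% (2 members and 2105 probe sets had an unadjusted p under 0.05). Cidec differed by 1.04 (SE 0.404, limma q = 0.188) and G0s2 by -0.95.

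Abhd5, Lipe, Plin5 and Cidea were called in no comparison with the pooled shams. Abhd5, the activator of Pnpla2, had its highest group mean in reperfused lobes at 0 hr, with 9.95, 9.35 and 10.09, beside 9.70, 8.97 and 10.18 in non-ischemic lobes and 9.87, 9.90 and 9.55 in the shams. At 2 hr it was at 8.99, 8.47 and 8.93 in reperfused lobes, 8.69, 8.62 and 9.06 in non-ischemic lobes and 9.45, 8.85 and 8.84 in the shams. The 3 kinds of liver overlapped at both times. Plin5 was 0.82 above the pooled shams in reperfused lobes at 0 hr (SE 0.301, limma q = 0.242), and it was at 5.67, 5.95 and 5.80 in the unoperated livers. Cidea was at 7.03 to 7.42 in the 0.5 hr shams and at 7.67 to 9.58 in the 2 hr shams. Its differences from the pooled shams were 1.10 or less in either lobe.

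Over the 13 group means, Plin2 and Mgll followed each other most closely among the members, with a Pearson correlation of 0.88, and Pnpla2 and Plin5 came next at 0.83. G0s2 correlated with no member above 0.50, and its correlation with its target Pnpla2 was 0.15. These values describe 13 means, each of 3 arrays, and carry no test. Among 9838 other probe sets, the genes nearest to G0s2 were Gfer (0.864), Zc3h8 (0.839) and Mrps6 (0.817). Those nearest to Plin2 were Zc3h13 (0.940), Slk (0.938) and Aatf (0.929), and those nearest to Cidec were Crybg3 (0.967), Mcl1 (0.963) and Ivns1abp (0.962).

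Other genes of lipid storage and use were counted from 5 lists. Of 13 other droplet surface and droplet formation genes, 10 passed the filter. Hilpda, another inhibitor of Pnpla2, rose at 2 hr against the pooled shams, by 0.98 (SE 0.123, limma q = 9.93e-05) in reperfused and 0.71 (SE 0.147, limma q = 0.00798) in non-ischemic lobes, with all its group means at 5.47 or less and so close to background. Plin3, a coat protein that moves between cytosol and droplets, rose by 0.61 at 2 hr and by 0.78 at 6 hr in reperfused lobes, making 2 of 10 tested genes called higher at 2 hr, beside 7.58% of all tested probe sets, and, with Ldah (1.14) and Aup1 (0.33), 3 of 10 at 6 hr, beside 19.7%. In non-ischemic lobes Cideb fell by 0.77 at 2 hr, beside 14% of all tested probe sets called. Ldah and Rab18 rose there by 1.17 and 0.62 at 6 hr, beside 15.1% called higher. Both also rose in the 6 hr shams against the earlier shams, by 0.54 and 0.51. Hsd17b13 was the 1 gene of the list called at 0.5 hr, higher by 1.06 in reperfused lobes, beside 1.56% of all tested probe sets. In reperfused lobes against the pooled shams, the median difference of the 13 was 0.09 at 2 hr and 0.04 at 6 hr. It was 0.50 and 0.59 for the 10 members and -0.01 and -0.02 for all probe sets. In non-ischemic lobes the median of the members was 0.70 at 2 hr and 0.26 at 6 hr. These medians carry no test.

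Of 17 genes of triacylglycerol synthesis, 13 passed the filter. Against the pooled shams at 6 hr, 5 fell and 1 rose in reperfused lobes, beside 9.25% of all tested probe sets lower and 19.7% higher. In non-ischemic lobes 3 fell and 1 rose, beside 9.74% lower and 15.1% higher. Lpin1, a phosphatidate phosphatase, had the largest fall, by 5.90 (SE 0.981, limma q = 0.000489) in reperfused and 5.56 (SE 0.979, limma q = 0.00118) in non-ischemic lobes. Lpin1 also fell in the 6 hr shams against the earlier shams, by 2.82 (limma q = 0.0397). Agpat2, an acyltransferase of the same pathway, rose by 0.79 and 0.65. At 2 hr Gpat3, which starts glycerolipid synthesis, rose by 3.47 (SE 1.01, limma q = 0.0336) in reperfused lobes and by 3.27 (SE 1.03, limma q = 0.0435) in non-ischemic lobes, where Acsl4, an acyl-CoA synthetase, also rose, by 0.83.

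Of 24 fatty acid oxidation genes and PPARα targets, 21 were measured and tested, and 2 fell in reperfused and 3 in non-ischemic lobes at 6 hr, beside 9.25% and 9.74% of all tested probe sets lower in the same lobes. Both lobes had lower Ppara, by 2.14 and 1.87, and lower Ppargc1a, its coactivator, by 2.49 and 2.53, in reperfused and non-ischemic lobes in that order. Ppargc1a also fell in the 6 hr shams against the earlier shams, by 2.01 (limma q = 0.00485). At 2 hr Ppargc1a rose by 2.63 (SE 0.612, limma q = 0.0119) in non-ischemic lobes. In the 6 hr shams 5 of the 21 fell and 1 rose against the earlier shams, beside 5.52% of all tested probe sets lower and 5.76% higher. Pdk4, which restrains glucose oxidation during fasting, fell by 5.27 (SE 0.985, limma q = 0.00454), and Angptl4, an inhibitor of lipoprotein lipase, fell by 3.43 (SE 0.867, limma q = 0.0229), the same shams in which Plin2 was lowest. Of 10 measured other neutral lipid hydrolases, 8 were tested. Lipc, the hepatic lipase, was the 1 called at 6 hr, and it fell by 1.05 in reperfused and 1.10 in non-ischemic lobes. The share of all tested probe sets called was 28.9% in reperfused and 24.8% in non-ischemic lobes. Of 7 export genes, Apob and Apoc2 did not pass the filter. Among the tested ones, 1 fell in each lobe at 6 hr, beside the same 9.25% and 9.74% lower. These were Sar1b by 0.35 in reperfused and Apoc3 by 0.52 in non-ischemic lobes.

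Between the lobes, no gene of these lists was called without pairing at any time. With the animal as a block, Angptl4 was 2.22 higher (SE 0.0971, limma q = 0.00153) and Gpat3 1.04 lower (SE 0.126, limma q = 0.0337) in reperfused lobes at 0.5 hr. Angptl4 was at 12.04 to 13.14 in reperfused and at 9.69 to 11.02 in non-ischemic lobes, without overlap, like G0s2. At 2 hr, with the block, Apoa4, an apolipoprotein of lipid-rich particles, was 1.05 higher (limma q = 0.0254) and Ppargc1a 1.39 lower (limma q = 0.00849) in reperfused lobes.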

How the data were processed

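RNA of 39 rat livers or liver lobes had been hybridized to Affymetrix Rat Transcriptome 1.0 arrays. The authors made the intensity values with the SST-RMA method in Affymetrix Expression Console 1.0, per the labels and the submitters' processing notes, and the deposited table holds linear values of 23409 probe sets (4.59 to 999961.4). The genome build of the probe sets is not given in the sources used here. Signals that are already summarized by RMA compress differences of dim probe sets. They were put on the log2 scale with no further normalization. Probe sets were named from the platform annotation: 19778 had 1 symbol, 419 several and 3212 none.

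As in the study's methods, the 11704 probe sets whose interquartile range over all arrays exceeded the median of 0.26 were kept. Each pair of groups was fitted alone with limma 3.58.1 (lmFit and eBayes, R 4.3.3), without a block, and p-values were adjusted by Benjamini and Hochberg. A q-value under 0.05 was called, in 17 comparisons. The change of a lobe difference between times was fitted on the differences within animals. The lobes came from the same animals per the study's methods, and their deviations from the group means correlated by 0.14 to 0.84. Lobes and shams of the same number correlated by -0.23 to 0.18, and the shams were not paired. The fit was tested on simulated data.

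The members, the gene lists and the motifs were chosen with earlier results of these data known. All 10 members are named. Genes named from the other lists are among the up to 3 with the largest rise and up to 3 with the largest fall called in a comparison, and not all of these are named. For G0s2, Plin2 and Cidec, the 3 genes with the most similar group means are named. Alternatives were no filter, a filter on dim probe sets (mean log2 under 5), quantile normalization, the animal as a block, shams of the same time, each array left out in turn and the mean of both Pnpla2 probe sets. The arrays of a group are biological replicates per the labels, and their number, 3, limits the precision. Promoter sequences are from RefSeq (GRCr8).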

Additional observations from a re-analysis of the deposited data

Results flagged for a closer look

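Among the members and the genes of the other lists, the reperfused minus non-ischemic difference itself differed between 0.5 and 2 hr for 3 genes. This was by the limma test on differences within animals, which called 0.923% of all tested probe sets. G0s2, the inhibitor of Pnpla2, changed by -3.59 (SE 0.366, q = 0.00405), with a lobe difference of 2.62 at 0.5 hr and -0.97 at 2 hr, upward in 3 of 3 animals at 0.5 hr and downward in 3 of 3 at 2 hr. The other 2 genes were named after their values were seen. Lpin2, a phosphatidate phosphatase of triacylglycerol synthesis, changed by 2.24 (SE 0.377, q = 0.0330), with lobe differences of -1.31 at 0.5 hr and 0.93 at 2 hr. Angptl4, which inhibits lipoprotein lipase, changed by -2.01 (SE 0.191, q = 0.00306), with lobe differences of 2.22 at 0.5 hr and 0.21 at 2 hr. Without pairing, the Lpin2 lobe difference was called at neither time (limma q = 0.276 at 0.5 hr and 0.335 at 2 hr). Nor was that of Angptl4 (limma q = 0.162 and 0.939), which was called at 0.5 hr with the animal as a block (limma q = 0.00153).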

How the results depend on the processing

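Numbers of members called are given here. Between the lobes at 0.5 hr, the 1 called member (G0s2) became 0 without the interquartile range filter and 0 with the filter on dim probe sets. At 2 hr the 0 became 1 with the animal as a replicate block (G0s2, -0.97, q = 0.0367), and the block changed no other call of a member. Without the interquartile range filter, the reperfused lobes at 6 hr had 1 called member against the pooled shams in place of 3, and the non-ischemic lobes 0 in place of 1. Quantile normalization left 1 of the 3, and moved the median of no array by more than 0.0935. With the shams of the same time alone, the reperfused lobes had 3 in place of 0 at 0.5 hr and 6 in place of 3 at 6 hr, and the non-ischemic lobes 2 in place of 0 at 0.5 hr, 0 in place of 1 at 2 hr and 4 in place of 1 at 6 hr. No array was left out in those fits. Leaving out each array in turn gave 0 to 1 called members between the lobes at 0.5 hr and 0 at 0, 2 and 6 hr. Against the pooled shams it gave 0 at 0 hr, 0 to 1 at 0.5 hr, 1 to 4 at 2 hr and 0 to 3 at 6 hr in the reperfused lobes, and 0 at 0 and 0.5 hr, 0 to 3 at 2 hr and 0 to 1 at 6 hr in the non-ischemic lobes. It gave 0 to 1 in the 6 hr shams, 0 to 1 in the shams against unoperated livers, 1 for the change of the lobe difference between 0.5 and 2 hr and 0 for the other changes. No direction of the 10 single results turned under any of these. With an array or animal left out, 26 values lost a call. Using the mean of both Pnpla2 probe sets gave 2.06 (q = 0.0688) for shams against unoperated livers. An alternative chosen after seeing the data, leaving the 6 hr shams out of that comparison, gave 2.31 for Pnpla2 (q = 0.0765). The cause of these losses was not tested. With 3 arrays a group, and Plin4 close to background, small differences were not detectable.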
